A study of Mus musculus with 4 samples.

Results

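Eif3a, Eif4b and Pabpc1 encode proteins that bring ribosomes to mRNA. They were read through 3 of the 63759 transcripts in a ribosome profiling data set of mouse embryonic fibroblasts. For each gene the transcript was the one with the largest summed count over the 4 libraries among those of the gene's coding length, which the deposited tables list as 1335 codons for Eif3a, 602 for Eif4b and 627 for Pabpc1. Coding length and summed count therefore chose the transcripts and are described without a test. Most of the summed count came from the control libraries described below, so the rule favours transcripts that are high there. The p-values given later do not allow for this. Other genes share each length, and the tables give no gene names.

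The cells were wild-type C57BL/6 mouse embryonic fibroblasts grown to confluence, and every library shared this background. All were synchronised with dexamethasone (Dex), a glucocorticoid that brings the circadian clocks of cultured cells into step, and 24 h later the culture temperature was raised from 35 °C to 38.5 °C (a warm shift). The control group (2 libraries) received no inhibitor. The wortmannin group (2 libraries) received 17β-hydroxy wortmannin, an inhibitor of the lipid kinase PI3K, and the labels used here give neither its dose nor the time of lysis. There was no group kept at the lower temperature among these libraries. Ribosomes were held on mRNA with cycloheximide, and the mRNA stretches they shielded from RNase I (footprints) were sequenced. The series mentions independent experiments without tying libraries to them, so the p-values measure the spread between these libraries, which may be technical. Footprints report mRNA amount and ribosome load together. Fewer mRNA molecules and fewer ribosomes on each cannot be told apart in these values.

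Initiation begins when the cap-binding complex recruits the small ribosomal subunit. eIF3, a multi-subunit complex that holds the small subunit, is built around its scaffold subunit eIF3a. eIF4B stimulates the RNA helicase eIF4A, which opens the leader of the mRNA. PABPC1 coats the poly(A) tail and binds the cap complex, joining both ends of the message. Many mRNAs of the translation machinery, Pabpc1 and Eif4b among them, are known as TOP mRNAs: they start with a cytosine followed by an unbroken run of pyrimidines (the terminal oligopyrimidine tract), and their translation depends on mTORC1, a kinase complex that PI3K signalling activates.

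Sequence around the annotated start of transcription is shown to set the letters there beside this description of TOP mRNAs. Eif3a and Eif4b were matched in the RefSeq promoter table, and Pabpc1 was not. Each window has 30 bases, 15 on each side of the boundary before the GENCODE M21 gene start, which is base 16. The letters come from RefSeq (GRCm38.p6), and capitals mark the longest unbroken run of C and T.
Eif3a, chr19:60790644-60790673, minus strand: atcacgtggTTCCTTCCTTTCCgtctctgg
Eif4b, chr15:102073758-102073787, plus strand: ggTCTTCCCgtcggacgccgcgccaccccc
The Eif3a run has 13 bases, from base 10 to base 22, and spans the annotated start. Base 16 of this window is a C, followed by pyrimidines up to base 22. Of 12357 genes with a window of this kind, 1.59% held a run at least that long. The Eif4b run has 7 bases, from base 3 to base 9, and does not reach the annotated start; 18.1% of genes held a run at least that long. In the Eif4b window base 16 is a C followed by a G. The description of TOP mRNAs above does not class Eif3a either way. These runs are a description of the letters and do not locate the start used in these cells.

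The transcript read for Eif3a was uc008ibx.1. The annotation puts Eif3a on chromosome 19, from 60761117 to 60790658 on the minus strand (GRCm38), with 22 coding exons and 1344 residues. The deposited length is 9 codons shorter, as it was for most long transcripts. Of 7 rows of this length uc008ibx.1 had the largest summed count, 10475, and the next had 7547. Genes with a complete coding transcript of the same length are Cenpj, Mink1, Mybbp1a, Trim66 and Usp31.

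For Eif4b the row was uc007xuk.2, one of 31 rows of its length, with a summed count of 2956 against 2336 for the next. Eif4b lies on chromosome 15, from 102073773 to 102097173 on the plus strand, with 15 coding exons and 611 residues. Its length is shared by 26 other genes. For Pabpc1 the row was uc007vmx.2, one of 24, with 6129 against 3552. Pabpc1 is also on chromosome 15, from 36595661 to 36609668 on the minus strand, with 14 coding exons and 636 residues, and 18 other genes share its length.

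Each assignment was checked against the rows around it in the tables. The rows within 25 lines were taken, leaving out those under 300 codons, and the share with the length of a gene lying up to 1000000 bp from the gene in question was counted. Below a share of 0.5 the row was discarded for that gene. The 3 rows were kept for their genes, with shares of 0.857 for Eif4b, 0.556 for Pabpc1 and 0.5, exactly at the limit, for Eif3a. The highest share that any other gene of the same length reached for these rows was 0.167, 0.167 and 0.15. No other row of these lengths was kept for Eif3a, Eif4b or Pabpc1 (highest shares 0.037, 0.208 and 0.036). The next most counted rows were kept for other genes, with shares of 0.75 for Mybbp1a, 0.81 for Lta4h and 0.704 for Nop9.

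The same check was applied to markers of cell types. Rows kept for 5 of 8 fibroblast markers summed to between 20150 and 34460 CPM (counts scaled to a library size of 1000000 with the normalization factor of each library), and included the collagens Col1a1 and Col1a2. This sum was 34170 and 34460 for the controls and 23850 and 20150 with wortmannin, and the collagens made up most of it. Other kept fibroblast markers went opposite ways: Vim had a mean of 1905 CPM in the controls and 389.2 with wortmannin, and Pdgfra 246.7 and 459.4. The part of these differences in the results was not tested. Rows kept for 3 macrophage, 3 endothelial and 4 epithelial markers each summed to between 0.128 and 1.73 CPM in every library; Cd68, Adgre1, Epcam and Krt18 were at 0. The 4 muscle marker rows summed to 15.3 to 30.0 CPM, nearly all of it at the length of Myh3, with Myog at 0. Library totals were 15376778 and 31110420 counts in the control group and 7677780 and 7485868 in the wortmannin group, so depth differed with treatment, and its part in the results was not tested.

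Footprints on all 3 transcripts were lower with wortmannin, at 67.2% of the control level for Eif3a, 31.0% for Eif4b and 8.97% for Pabpc1. Of 26602 transcripts tested in edgeR, 17.3% were lower and 15.8% higher at a Benjamini-Hochberg adjusted p under 0.05. The genes were singled out with results of these libraries known, so their joint direction is a description.

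**Figure D1:**
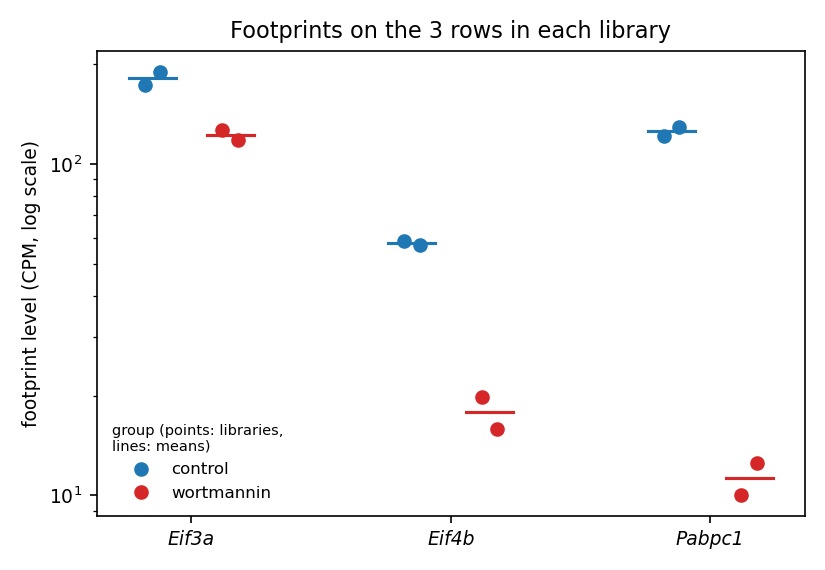
Footprint level (CPM, log axis) of the rows read for Eif3a, Eif4b and Pabpc1 in each library; points are libraries (2 per group) and short lines are group means. Control and wortmannin points do not overlap for any of the 3, and the gap is widest for Pabpc1, from a mean of 125.9 to 11.3 CPM.

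Pabpc1, the poly(A)-binding protein, had counts of 1899 and 4061 without the inhibitor and of 75 and 94 with it. On the CPM scale these were 121.9 and 129.8 in the controls and 10.1 and 12.5 with wortmannin. Both wortmannin libraries lay far below both controls, while the libraries of a group lay close together. The mean went from 125.9 ± 5.58 to 11.3 ± 1.73 CPM (SD, n = 2). The log2 fold change was -3.48 ± 0.14 (SE; edgeR, Benjamini-Hochberg adjusted p = 4.34e-06), or 11.1-fold lower. Only 18 tested transcripts had a lower fold change.

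The counts set the precision of the low level. In wortmannin replicate 1 the share of Pabpc1 was 9.77 in 1000000 deposited counts, with a 95% exact Clopper-Pearson interval of 7.68 to 12.2, and in replicate 2 it was 12.6 (10.2 to 15.4). In the controls the intervals ran from 118.0 to 129.2 and from 126.6 to 134.6. They cover counting error only. Mouse has Pabpc1-like genes and retrocopies, and the sources used here do not say how footprints that match several copies were counted, so the level is uncertain to that extent.

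Eif4b, the helicase cofactor, had 911 and 1778 counts in the controls and 148 and 119 with wortmannin. In CPM the values were 58.5 and 56.8 against 19.9 and 15.8. The groups did not overlap, and the wortmannin libraries differed from each other more than the controls did. The mean went from 57.7 ± 1.17 to 17.9 ± 2.85 CPM (SD, n = 2). The log2 fold change was -1.69 ± 0.13 (SE; edgeR, Benjamini-Hochberg adjusted p = 4.93e-05), 3.23-fold lower, and 1.30% of tested transcripts were lowered more.

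Eif3a, the scaffold of eIF3, had the largest counts of the 3, with 2706 and 5939 in the controls and 944 and 886 with wortmannin. In CPM it was at 173.7 and 189.8 in the controls and at 126.7 and 117.9 with wortmannin. The groups did not overlap, and relative to the control level the gap was smaller than for Eif4b or Pabpc1. The mean went from 181.8 ± 11.4 to 122.3 ± 6.23 CPM (SD, n = 2). The log2 fold change was -0.57 ± 0.11 (SE; edgeR, Benjamini-Hochberg adjusted p = 0.00423), 1.49-fold lower, and 16.6% of tested transcripts had a lower fold change. The call was lost without control replicate 1 (-0.64, adjusted p = 0.0596) and without control replicate 2 (-0.51, adjusted p = 0.145), where the lone control is assumed to vary like the wortmannin pair. Both wortmannin libraries were below both controls in 34.9% of all tested transcripts, and above both in 34.1%, so the lack of overlap alone says little for any of the 3.

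Abundance and length each give a further background. Among 11372 tested transcripts of at least 10 CPM on average, 27.0% were lower and 19.8% higher. Ranked from the lowest fold change among these, Eif3a was at 2116, Eif4b at 221 and Pabpc1 at 13. The length windows that follow are not matched for abundance. Among 1757 tested transcripts within 20% of the Eif3a length (1068 to 1602 codons), 8.94% were lower and 26.0% higher, and the median log2 fold change was 0.18. In this window 98 transcripts had a lower fold change than Eif3a. Among 5255 transcripts within 20% of the Eif4b length, 13.5% were lower, the median was 0.07, and 21 had a lower value than Eif4b. Around the Pabpc1 length there were 5149, 13.2% of them lower, with a median of 0.07, and 2 had a lower value than Pabpc1.

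Rows of exactly the same length had fold changes of both signs. The neighbour check kept 4 of the other 5 tested rows at the Eif3a length, 17 of 21 at the Eif4b length and 8 of 12 at the Pabpc1 length for other genes. At the Eif3a length the other 5 tested rows had log2 fold changes from -0.61 to 0.45, with 1 lower, 1 higher and 3 not past the threshold. At the Eif4b length the other 21 ranged from -1.05 to 0.98, with 3 lower and 5 higher. These rows are not all separate genes. The higher rows uc012eag.1, uc008yla.2 and uc008ykz.2 stood on adjacent lines (0.888, 0.888 and 0.903) and may count the same footprints. Some other rows of this length had identical counts. At the Pabpc1 length the other 12 ranged from -0.54 to 0.72, with 2 lower and 1 higher. The values for Eif4b and Pabpc1 lay outside the range of the rows that share their lengths, and that for Eif3a lay inside it. The rows read for the genes were chosen by summed counts that came mostly from the controls. This contrast is therefore partly set by that choice and is a description. With wortmannin the next most counted rows had larger counts, 160 and 152 at the Eif4b length and 275 and 363 at the Pabpc1 length. By summed CPM, which weighs the libraries alike, the same rows came first. The controls made up most of that sum too, so this ordering does not free the choice from the contrast.

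**Figure D2:**
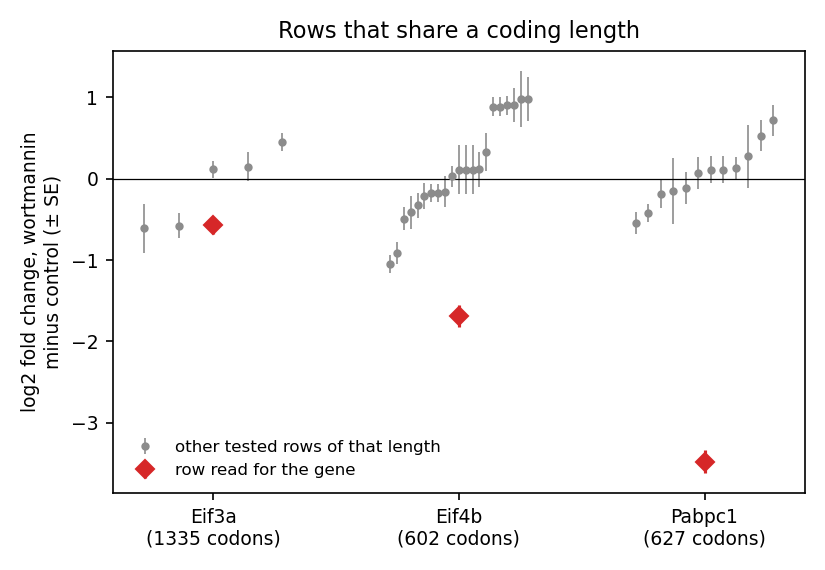
Log2 fold change (wortmannin minus control, ± SE from edgeR) of every tested row at the coding lengths of Eif3a, Eif4b and Pabpc1; diamonds are the rows read for the genes and grey points the other rows, spread sideways by value only. The diamonds for Eif4b (-1.69) and Pabpc1 (-3.48) lie below all grey points of their length, while that for Eif3a (-0.57) lies above the lowest one (-0.61).

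Shorter rows next to the 3 in the tables carried the same pattern. The row beside Eif3a, of 543 codons, had 43.7% to 44.7% of its count in every library and a log2 fold change of -0.59. One row beside Eif4b, of 394 codons, had 61.3% to 67.0% of its count and stood at -1.77, and the row beside Pabpc1, of 159 codons, had counts of 441 and 1030 in the controls and 15 and 26 with wortmannin and stood at -3.49. Such rows may count the same footprints, so they are no independent evidence. The row on the other side of Eif4b, of 1100 codons, was at 0.12 ± 0.16 (edgeR, Benjamini-Hochberg adjusted p = 0.589).

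Levels of different genes are compared per length, as CPM per 1000 codons. In the controls Pabpc1 had the highest density of the 3, at 194.4 and 207.0, followed by Eif3a at 130.1 and 142.2 and Eif4b at 97.2 and 94.4. With wortmannin the order was Eif3a (94.9 and 88.3), Eif4b (33.0 and 26.3) and Pabpc1 (16.1 and 19.9). In neither group did neighbours in the order overlap. Pabpc1 went from ranks 1685 and 1618 by density among the 46419 rows with a coding length to ranks 14722 and 12662. Eif4b went from 3312 and 3440 to 8512 and 10217, and Eif3a only from 2488 and 2351 to 2875 and 3043.

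Ratios within a library do not depend on how libraries are scaled. Pabpc1 density was 1.49 and 1.46 times that of Eif3a in the controls, and 0.169 and 0.226 times with wortmannin. Eif4b stood at 0.747 and 0.664 of Eif3a in the controls and at 0.348 and 0.298 with wortmannin. Pabpc1 over Eif4b went from 2.0 and 2.19 to 0.487 and 0.758. In none of the 3 ratios did the groups overlap, and the log2 differences were -2.92, -1.13 and -1.79 in the order given. A two-sided exact permutation test with 2 libraries per group cannot go below p = 0.333, which each ratio reached, so unequal change between the genes was not established by this test.

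Other genes of initiation were read from a list of 60 genes that includes these 3. Reading each by the most counted row of its length gave 59 rows, of which 30 were lower, 3 higher and 26 not past the threshold, with a median log2 fold change of -0.33. The neighbour check discarded 50 of the 60 assignments, so no fold change of a discarded row is given from that reading. Rows that the check kept were found for 45 genes, and 43 of these rows were tested. Of these 33 were lower, 1 was higher and 9 did not pass, with a median of -0.76 against 0.003 over all tested transcripts. Without the 3 genes 30 of 40 were lower (median -0.75). Of all tested transcripts 17.3% were lower, and of those with at least 10 CPM 27.0% were lower and 19.8% higher. At least 10 CPM was reached by 36 of the 43 rows. The counts given below for each group of factors are to be read beside these shares. Fewer of the 43 were lower when either control library was left out, and so were fewer of all tested transcripts. The list was drawn up with earlier results of these libraries known, and a kept row may still belong to a nearby gene of the same length.

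**Figure D3:**
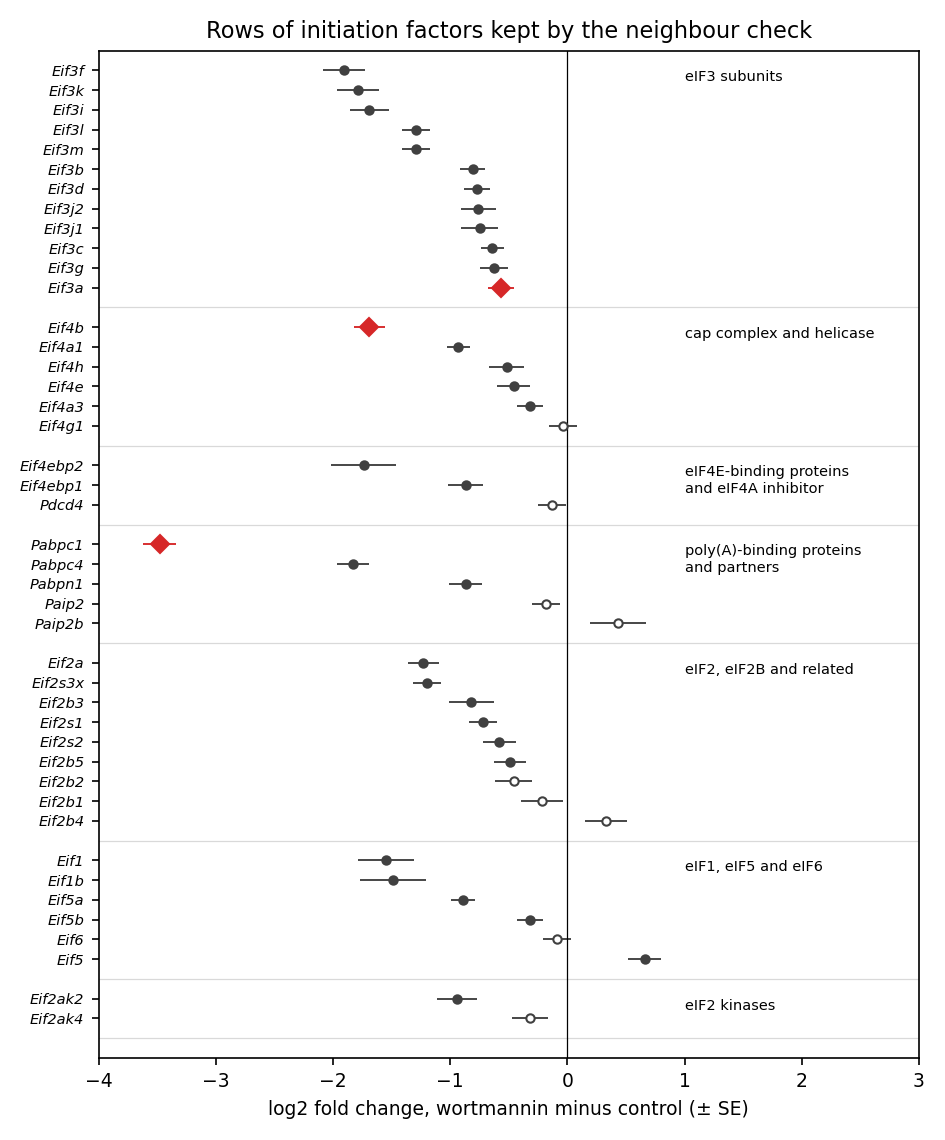
Log2 fold change (wortmannin minus control, ± SE from edgeR) of the 43 tested rows kept for initiation factor genes, grouped by role; filled symbols passed a Benjamini-Hochberg adjusted p of 0.05, open ones did not, and red diamonds are Eif3a, Eif4b and Pabpc1. Pabpc1 lies farthest left at -3.48, Eif3a is the least lowered of the eIF3 rows at -0.57, and Eif5 alone is filled to the right of 0.

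Rows were kept and tested for 12 eIF3 genes, and all 12 were lower, with log2 fold changes from -1.91 for Eif3f to -0.57 for Eif3a (median -0.79). All 12 had at least 10 CPM on average, a level at which 27.0% of tested transcripts were lower. Eif3f had 66.0 and 69.5 CPM in the controls and 22.1 and 14.0 with wortmannin. Eif3k (-1.79 ± 0.18), Eif3i (-1.69 ± 0.17), Eif3l (-1.29 ± 0.12) and Eif3m (-1.29 ± 0.12) followed. The groups did not overlap for any of these 5, and their adjusted p-values lay between 0.000113 and 0.000204 (edgeR, Benjamini-Hochberg). Both wortmannin libraries were below both controls in 34.9% of all tested transcripts, so the lack of overlap alone says little. Nearer to Eif3a were Eif3b at -0.81 ± 0.11, Eif3d, a subunit that can bind the cap, at -0.77 ± 0.11, and Eif3c at -0.64 ± 0.10. Without control replicate 2, Eif3c (adjusted p = 0.0791) and Eif3j1 and Eif3j2 (0.105 and 0.0929) no longer passed, nor did Eif3g without either control (0.0657 and 0.0857). Whether Eif3a was lowered less than the others was not tested. The rows of Eif3j1 and Eif3j2 are not independent, since the count of the first was 97.8% to 99.2% of the second in every library.

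In the controls the mean density of the 12 eIF3 rows ran from 96.1 CPM per 1000 codons for Eif3g to 263.6 for Eif3c, and with wortmannin from 51.2 for Eif3i to 169.4 for Eif3c. The 10 rows other than Eif3a and Eif3c lay between 96.1 and 192.4 in the controls and between 51.2 and 65.4 with wortmannin. Eif3a, at 91.6 ± 4.66 (SD, n = 2), and Eif3c stood above them. These 2 were set apart after the values had been seen.

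**Figure D4:**
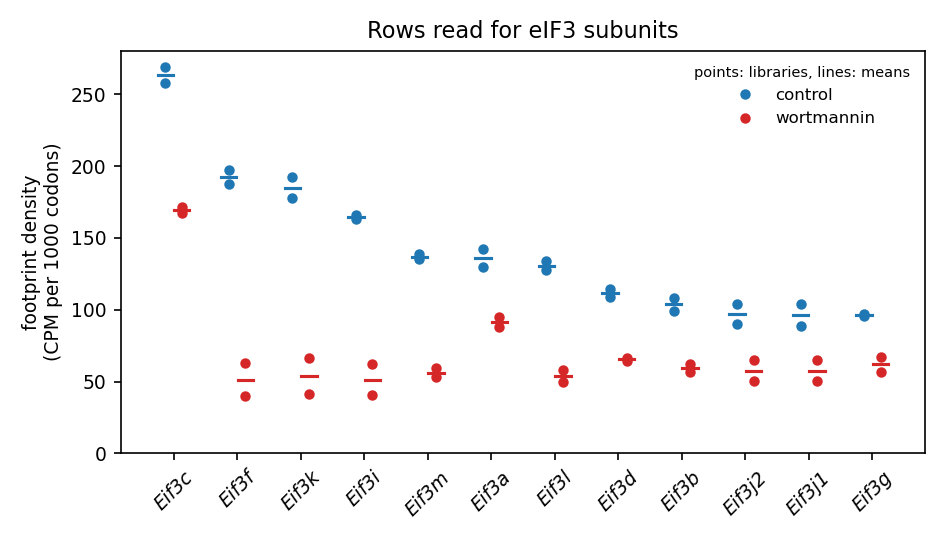
Footprint density (CPM per 1000 codons) of the 12 rows kept for eIF3 genes, ordered by control mean; points are libraries (2 per group) and lines are group means. The control means fall from 263.6 for Eif3c to 96.1 for Eif3g, and the wortmannin means lie between 51.2 and 65.4 except for Eif3c (169.4) and Eif3a (91.6).

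The list group named cap complex and helicase gave 6 tested rows, 5 of them lower. The group follows the list, and a place in it, as for Eif4a3, does not show that a protein acts in the cap complex. Eif4b was lowered most. Eif4a1, the helicase that eIF4B stimulates, was at -0.93 ± 0.10 (edgeR, Benjamini-Hochberg adjusted p = 0.00034), from 263.2 and 281.3 CPM in the controls to 146.7 and 139.6. Eif4h, a smaller relative of eIF4B, was at -0.52 ± 0.15, the cap-binding protein gene Eif4e at -0.46 ± 0.14 and Eif4a3 at -0.32 ± 0.11. The scaffold Eif4g1 did not pass, with 176.5 and 177.1 CPM in the controls and 155.0 and 188.8 with wortmannin, values that overlap (-0.04 ± 0.12, adjusted p = 0.818). Without either control replicate Eif4h (adjusted p = 0.102 and 0.224), Eif4e (0.23 and 0.234) and Eif4a3 (0.383 and 0.334) no longer passed. Eif4e also failed without wortmannin replicate 2 (0.117), with DESeq2 (0.201) and with the replicate block (0.0602). Eif4a3 also failed with DESeq2 (0.229), the replicate block (0.101), RLE scaling (0.0513) and rows of distinct counts (0.0505). Eif4g1 passed without wortmannin replicate 2 (-0.18, adjusted p = 0.0282).

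Of the proteins that hold back the cap complex, Eif4ebp1, which sequesters eIF4E until mTORC1 phosphorylates it, was at -0.87 ± 0.15 (adjusted p = 0.00312 in edgeR after Benjamini-Hochberg, 0.059 without control replicate 2). Eif4ebp2 was at -1.74 ± 0.28, from counts of 65 and 135 in the controls to 11 and 8. Pdcd4, an inhibitor of eIF4A, was at 90.5 and 92.9 CPM in the controls and at 91.0 and 76.8 with wortmannin and did not pass (-0.13 ± 0.12); it passed without wortmannin replicate 1 (-0.27, adjusted p = 0.00347).

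Within the poly(A)-binding group 3 of 5 tested rows were lower. Pabpc4, a cytoplasmic relative of Pabpc1, had 26.9 and 25.1 CPM in the controls and 7.11 and 7.45 with wortmannin (-1.83 ± 0.14, adjusted p = 4.19e-05 in edgeR). Its controls and wortmannin libraries were far apart, but by less than those of Pabpc1 on the log2 scale. Pabpn1, which acts on nuclear poly(A) tails, was at -0.87 ± 0.14. Paip2, an inhibitor of PABPC1, was at -0.18 ± 0.12 (adjusted p = 0.264) and Paip2b at 0.43 ± 0.24 (adjusted p = 0.198). Paip2b passed without wortmannin replicate 2 (0.75, adjusted p = 0.0114).

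For eIF2, which delivers the initiator tRNA, and its exchange factor eIF2B, 6 of 9 rows were lower and none higher. Eif2a, a separate initiation factor, was at -1.23 ± 0.13, the eIF2 subunits Eif2s3x at -1.20 ± 0.12, Eif2s1 at -0.72 ± 0.12 and Eif2s2 at -0.58 ± 0.14. The eIF2B subunits Eif2b3 and Eif2b5 were at -0.82 ± 0.19 and -0.49 ± 0.14. Without control replicate 2 the calls of Eif2s1 (adjusted p = 0.0628), Eif2s2 (0.101), Eif2b3 (0.0773) and Eif2b5 (0.223) were lost, so that 2 of the 6 remained called. Without control replicate 1 those of Eif2s2 (0.102), Eif2b3 (0.077) and Eif2b5 (0.196) were lost. DESeq2 did not call Eif2b3 (0.0785) or Eif2b5 (0.203), and Eif2b5 was also lost without wortmannin replicate 2 (0.0749) and with the replicate block (0.0536).

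Among eIF1, eIF5 and eIF6 genes 4 of 6 rows were lower. Eif1, which guards start codon choice, was at -1.55 ± 0.24, and its wortmannin libraries differed widely, at 31.1 and 15.7 CPM. Eif5a, an elongation and termination factor despite its name, was at -0.89 ± 0.10, and Eif5b, which joins the ribosomal subunits, at -0.32 ± 0.11. The Eif5b call was lost in 7 of the 10 other settings: without either control (adjusted p = 0.272 and 0.458), with DESeq2 (0.253), the replicate block (0.108), RLE scaling (0.0538), no filter (0.0552) or rows of distinct counts (0.0536). The single higher row of the list was Eif5, the GTPase activator of eIF2, with 30.6 and 32.7 CPM in the controls and 43.3 and 56.5 with wortmannin (0.66 ± 0.14; edgeR, Benjamini-Hochberg adjusted p = 0.00744). This call too was lost without either control library (0.0946 and 0.065). Of the eIF2 kinases Eif2ak2 was at -0.94 ± 0.17, and Eif2ak4 was at -0.32 ± 0.15 and did not pass.

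Likeness to each gene was measured as the distance between mean-centred log2 CPM values over the 4 libraries, so that it describes these libraries only. The kept rows nearest to Eif3a were those of Eif3c (distance 0.13), Eif2b5 (0.14) and Eif3g (0.14). Nearest to Eif4b were Eif4ebp2 (0.10), Eif3i (0.21) and Eif3k (0.29). Among kept rows none came as close to Pabpc1: the nearest were Pabpc4 (1.67), Eif3f (1.68) and Eif3k (1.8). With so few libraries this distance follows largely from the fold changes above, where Pabpc1 was the lowest kept row. It is no separate result. Among the most counted rows of each length, whatever gene they belong to, the nearest to Pabpc1 was at 0.46. The neighbour check discarded that row for its list gene, so the distance is not that of a known initiation factor.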

How the data were processed

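Ribosome footprints of 4 libraries were analysed. The deposited files list UCSC transcripts with a length in codons and a count of footprints; the values are whole numbers with a different total in each library, so the authors' counts were taken as not normalised. Overlapping transcripts may count the same footprints. Per the submitters' processing notes, CASAVA 1.8 and STAR 2.7.0 were used with mm10. What did the counting is not given in the sources here. Lengths came from GENCODE M21 (GRCm38). With 9 codons subtracted, 94.6% of 1466 transcripts over 1500 codons had the length of a complete coding transcript, against 59.5% to 64.5% for other shifts from 0 to 20. Line order did not choose the rows of Eif3a, Eif4b and Pabpc1. For the other list genes and the markers it did: the kept row was the most counted one with a neighbour share of at least 0.5. Line order also gave the names of other rows of the same lengths and the rows beside the 3.

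The test was edgeR 4.0.16 under R 4.3.3 (TMM, default expression filter with a minimum count of 10, quasi-likelihood F test, Benjamini-Hochberg over all transcripts tested), after a test on simulated data. Each standard error was obtained as the absolute log2 fold change over the square root of F. Python 3.11.15 and scipy 1.17.1 served for other steps, DESeq2 1.42.0 for an alternative. Chi-square per degree of freedom was 1.65 between the control libraries and 6.42 between the wortmannin libraries, so neither pair is 1 set of counts deposited in duplicate. These values cannot tell whether a pair came from separate cultures or from repeated sequencing of the same material.

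The genes and lists were chosen with earlier results of these data known. Named were list rows past the threshold with a mean of at least 10 CPM and no overlap between groups (up to 12 per direction), up to 4 per role by p, and the 3 nearest in pattern. The rule was applied to kept rows. Eif3b, Eif3d, Eif3j1, Eif3j2, Eif4a3, Eif4g1, Pdcd4, Paip2, Paip2b, Eif2b3 and Eif2ak4 were added after their values were seen, and Eif3e, Eif3h and 13 other list genes had no kept row.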

Additional observations from a re-analysis of the deposited data

How the results depend on the processing

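The 3 genes kept their direction under 10 other settings of scaling, test, filter, replicate block, distinct rows and libraries left out: -0.64 to -0.51 for Eif3a, -1.87 to -1.53 for Eif4b and -3.64 to -3.35 for Pabpc1. Eif4b and Pabpc1 passed in all 10. With 1 library left out the ranges were the same, and the Eif3a call was lost when either control was left out (0.0596 and 0.145). The numbers do not pair the libraries by the labels, and deviations of same-numbered libraries correlated at -0.059; with the replicate number as a block the values were -0.57, -1.70 and -3.48, all called, and 7863 transcripts were called in place of 8811. Choice of the row mattered. Summing all rows of a length, which mixes genes, gave -0.20 for Eif3a (adjusted p = 0.152) and -0.14 for Eif4b (0.32), neither past the threshold, and -0.77 for Pabpc1. The next most counted row gave 0.11 for Eif3a, the opposite direction, and is the row kept for Mybbp1a. DESeq2 called 4993 transcripts in all, and counts with 1 library left out ran from 3122 to 12007. List rows called, by the most counted row of each length, were 33 in the main reading, 18 to 48 with 1 library left out, and 1 of 3 when only lengths of at most 5 genes were used. Rows lower among those kept by the neighbour check, a count added after seeing the data, ran from 19 to 35 with 1 library left out, against 33. The shallow wortmannin libraries limit Pabpc1 most, with 75 and 94 counts.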
